A study of Mus musculus with 24 samples.

Results

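Uts2, Vwa5b2, Mcf2, Cyp2j13, Sds, Pgc and Abca12 are 7 mouse genes whose array signal stood highest in efferent over afferent nerve fibres at one or more ages. They were chosen by the log2 signal of EN minus that of AN out of 37074 gene names on the array, so the difference itself is described here and carries no test. The 7 genes have 16 probes among 56605 gene probes. Of these, 11 were tested, among 36409 probes in all that cleared the background mark throughout at least 1 group (3 of 3 arrays), and the brightest probe of every one of the 7 genes was tested. A gene is represented by its probe with the highest mean over the 24 arrays, and its other probes are given where they differ. The tests concern the change with age of the mean of both roots. That mean is uncorrelated with the difference used for the choice only where EN and AN have equal spread. Uts2 did not have it, with an SD of 0.27 in EN and 1.77 in AN at 5 weeks. SDs also differed for Mcf2 (0.16 in EN, 1.05 in AN at 3 weeks) and Vwa5b2 (0.08 and 0.23 at 5 weeks). For Abca12 they were 0.007 and 0.29 at 1 week. An SD from 3 arrays cannot show equal spread for any member, so no age test of a member is taken as free of the choice. The probes of Uts2, Mcf2 and Pgc cleared the background mark throughout a group only in EN.

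The study dissected efferent nerve fibres (EN, the ventral root) and afferent nerve fibres (AN, the dorsal root) of segments L4-L6 from C57BL/6 mice on the day of birth (P0) and at the ages of 1, 3 and 5 weeks (written 1 W, 3 W, 5 W). All 8 groups were of this strain, the labels give no allele, agent or injury, and both sexes were used. Each group has 3 one-colour arrays, and each array was hybridized with labelled RNA of 1 sample. The methods name 9 animals for each age and 8 collecting tubes for the 8 groups, and data from 3 independent experiments. They do not say how animals were divided over arrays. The arrays of a group may be separate pools of animals or repeats of 1 tube, so the spread between them may be partly technical. A root is a mixture of axons, Schwann cells, fibroblasts, vessels and immune cells, and in such bulk RNA fewer cells of a type and less RNA per cell cannot be told apart.

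Ventral roots carry the axons of motor neurons, whose cell bodies lie in the spinal cord, and dorsal roots carry the central axons of sensory neurons, whose cell bodies lie in the dorsal root ganglia. Most messenger RNA of a root therefore comes from the cells that wrap and surround the axons, although axons hold some messenger RNA of their own. The 7 genes share no pathway. Uts2 encodes urotensin II, a short vasoactive peptide that motor neurons of the spinal cord and brainstem are known to make, and its receptor Uts2r is a G protein-coupled receptor. Mcf2 encodes the Dbl oncoprotein, a guanine nucleotide exchange factor. Cyp2j13 belongs to the cytochrome P450 2J family, which makes epoxides from arachidonic acid, and Sds is serine dehydratase, a liver enzyme that turns serine into pyruvate. Pgc is pepsinogen C, the precursor of a stomach protease, Abca12 is a lipid transporter of the skin, and Vwa5b2 is a little-studied protein with a von Willebrand factor A domain.

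Values below are the deposited log2 signals after quantile normalization, and a difference of 1 is a 2-fold difference. On single arrays between 55.1% and 71.7% of spots were well above background, and the dimmest such probe lay between 3.71 and 5.87 on the log2 scale. A probe was called at an adjusted p under 0.05 (limma, Benjamini-Hochberg over all tested probes) and a fold over 2. In the mean of both roots 5.74%, 16.1% and 15.5% of all tested probes were called higher at 1 W, 3 W and 5 W than at P0, and 5.11%, 14.4% and 14.6% lower, which is the background for each count with age below. One array stood apart. On the AN array of replicate 3 at 3 W the summed signal of 15 sensory neuron genes reached 18.54, against 16.4 and 15.45 on the other AN arrays of that age, and that of 17 motor neuron and cholinergic genes reached 16.24, against 12.55 and 12.42. Its weight in an array-quality fit was the lowest of the 24, at 0.216, and the 3 W values of the members are also given without it. None of the 17 tested motor neuron and cholinergic genes was called higher in EN than in AN at any age by limma, where 0.255%, 0.371%, 0.882% and 0.821% of all tested probes were called higher in EN from P0 to 5 W in turn, and 0.0714%, 2.41%, 2.23% and 2.49% lower. At an unadjusted p under 0.05 and a fold over 2 the count was also 0 at each age. By the adjusted p, 5 of the 17 were called lower in EN at 1 W, 0 at 3 W and 1 at 5 W, and by the unadjusted p 6, 5 and 1. Chat, the enzyme that makes acetylcholine, was at 8.47 ± 0.81 in EN and 9.09 ± 0.67 in AN at 5 W (SD, n = 3), and no array had Mnx1, a motor neuron transcription factor, well above background. The summed signal of 10 skeletal muscle genes at P0 ranged from 16.18 to 17.74 over the EN arrays and from 15.06 to 16.35 over the AN arrays. At 1 W the ranges were 12.9 to 13.67 in EN and 11.49 to 13.45 in AN. At 3 W they were 14.19 to 15.55 in EN and 13.96 to 17.44 in AN, and at 5 W 13.49 to 15.09 and 12.29 to 17.08. Of 12 Schwann cell genes, 2 (Mbp and S100b) were called higher in EN at P0 and none later, while 1 (L1cam) was called lower in EN at 1 W and 3 (Erbb3, Ncam1 and L1cam) at both 3 W and 5 W. Of the 15 sensory neuron genes, 9, 3 and 1 were called lower in EN at 1 W, 3 W and 5 W. Of the 10 astrocyte and spinal cord genes, 4, 1 and 6 were called lower at these ages and 1 higher at 1 W, and of the 10 oligodendrocyte genes 2, 0 and 4 were called lower. The part of these cell types in the results below was not tested.

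**Figure D1:**
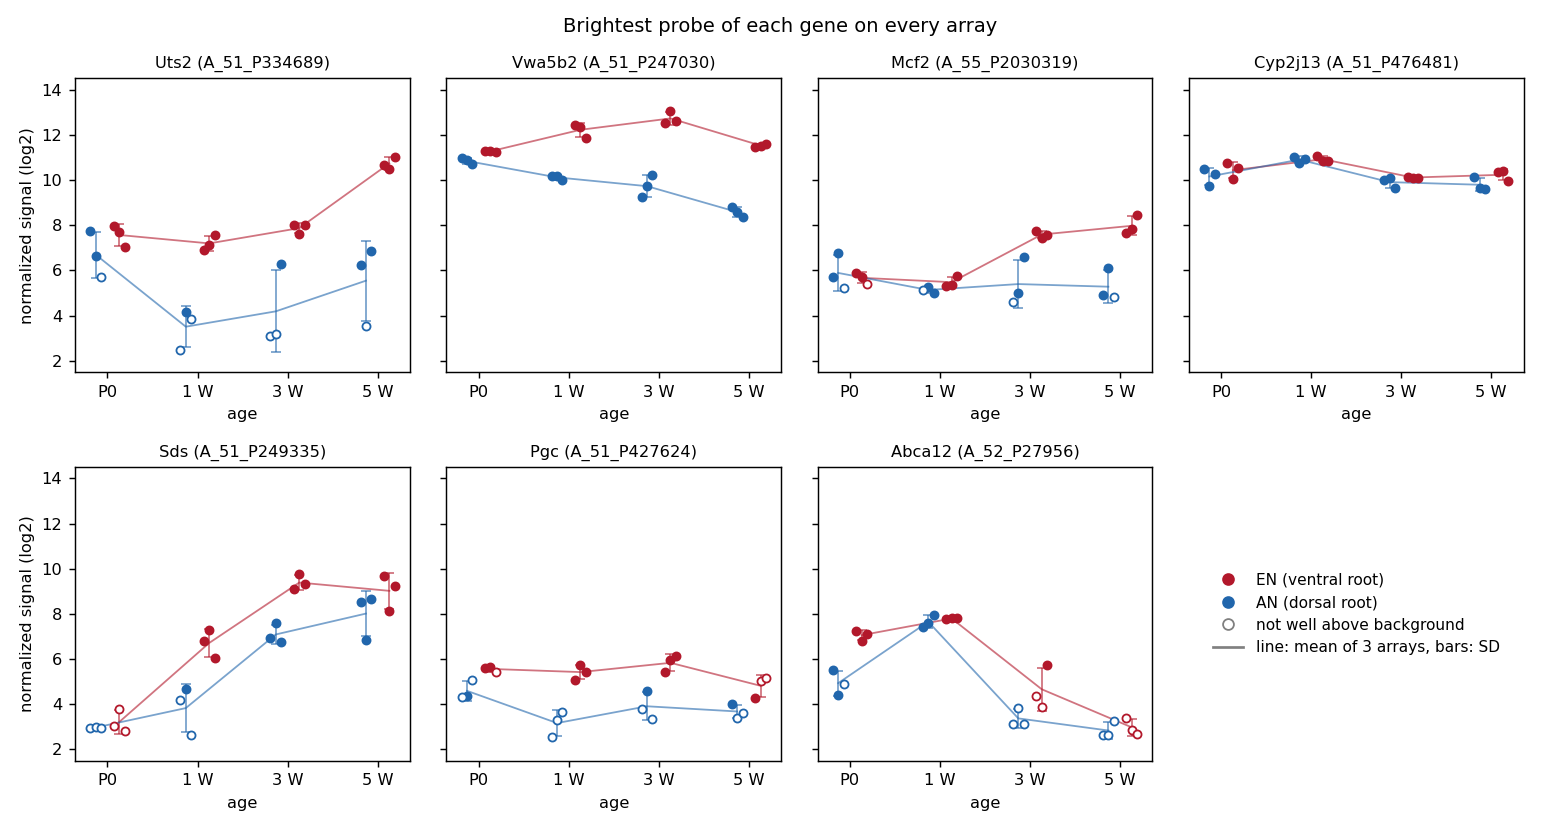
Normalized signal (log2, y axis) of the brightest probe of each gene on every array at each age (x axis), EN in red and AN in blue, with lines through the means of 3 arrays and bars of 1 SD; open points were not well above background. Uts2 in EN reached 10.5 to 11.04 at 5 W, Sds climbed in both roots from background at P0, Abca12 returned to background by 5 W, and the Cyp2j13 probe lay at about the same level in both roots.

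Uts2 was the peptide ligand of the set and had the largest difference between the roots of the 7 genes at 5 W. Its only probe, A_51_P334689, lies at chr4:150375854-150375913 (mm9, plus strand), and its first 30 of 60 bases are shown because every Uts2 value rests on this one oligonucleotide.
A_51_P334689: tgaagcaaaatcacgctaacgacgccttgt
At P0 Uts2 read 7.95, 7.72 and 7.04 on the EN arrays and 7.74, 6.66 and 5.69 on the AN arrays, and the groups overlapped. At 1 W the EN arrays read 6.91, 7.11 and 7.57 and the AN arrays 2.49, 4.17 and 3.87, of which 1 of 3 was well above background. No AN array came near the EN arrays at this age.

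At 3 W Uts2 read 8.01, 7.62 and 7.99 in EN and 3.1, 3.19 and 6.28 in AN. Its AN array at 6.28 was the one with the high neuronal signal, and without it the difference between the roots was 4.73 in place of 3.68. At 5 W the EN arrays read 10.68, 10.5 and 11.04, the highest Uts2 values of the series, and the AN arrays 6.23, 3.53 and 6.88. EN exceeded AN by 0.87, 3.68, 3.68 and 5.2 in order of age (SE 0.80 each), the last of which is 36.7-fold. The 5 W difference was 4.19 without the AN array of replicate 2 and 5.86 without that of replicate 3, and with normexp background correction the later differences were 1.4, 1.7 and 3.73. At 1 W and 3 W 1 of 3 AN arrays was well above background, so the size of those differences rests on values near background. Over the 8 groups the 5 W EN level stood 2.87 above the next group, 3 W EN, and its arrays did not overlap any other group. The 3 W, P0 and 1 W EN groups followed in that order, and neighbours in the order overlapped.

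Averaged over both roots, Uts2 was lower at 1 W than at P0 by a log2 difference of -1.78 (SE 0.57, adjusted p = 0.0175 by limma). This call did not hold when the EN and AN arrays of one number were treated as a pair (adjusted p = 0.102), nor without the AN array of replicate 1 at 1 W (-1.53, adjusted p = 0.0517), nor without all arrays of replicate 1 (-1.10, adjusted p = 0.311) or replicate 2 (-1.90, adjusted p = 0.0634). With normexp the 1 W difference was -0.72, under 2-fold, and the call ended. By the deposited values most of the 1 W difference lay in AN, at -3.19, against -0.38 in EN. At 3 W the mean of both roots differed from P0 by -1.10 (adjusted p = 0.0923), and without the AN array that stood apart by -1.63 (adjusted p = 0.00712). The 3 W difference also passed with slide as a block (-2.7, adjusted p = 0.0451), with array weights (-1.53, adjusted p = 0.00179) and with scaling to the 75th percentile (-1.31, adjusted p = 0.0466), without the AN array of replicate 2 at 5 W (adjusted p = 0.0462), and without all arrays of replicate 3 (-2.04, adjusted p = 0.00631). At 5 W the difference was 1.01 (adjusted p = 0.125), the mean of 3.17 in EN and -1.15 in AN. It passed without the AN array of replicate 2 at 5 W (1.51, adjusted p = 0.0131). The 5 W difference also passed with array weights (1.17, adjusted p = 0.0389) and with normexp (1.13, adjusted p = 0.000188). Within the slides that also held P0 arrays, Uts2 differed from P0 by -3.15 and -1.06 at 1 W and by 0.24 at 5 W.

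The other tested members of the urotensin system were the receptor and the second ligand. Uts2r, the urotensin II receptor, was at 8.55 ± 0.14 in EN and 8.39 ± 0.30 in AN at 5 W (SD, n = 3), and it was called at no age, with differences between the roots of 0.03 to 0.17. Uts2b encodes the urotensin II-related peptide. It fell with age in the mean of both roots, by 1.88 at 1 W, 2.96 at 3 W and 2.99 at 5 W (adjusted p = 0.000747, 1.96e-06 and 1.55e-06). At 5 W it was called higher in EN, at 5.39 ± 0.33 against 2.81 ± 0.28 (adjusted p = 0.00632, SD, n = 3). It was not well above background on any AN array there and on 2 of 3 EN arrays, so the fold is at least 1.86-fold higher in EN.

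Vwa5b2 differed between the roots with little spread between arrays, but its probes did not agree on the direction. The brightest probe, A_51_P247030, lies at chr16:20605372-20605431 (mm9, plus strand), the last of its 3 probes along the gene. A_66_P133425, at chr16:20592305-20592364, starts 13067 bases before it, and A_55_P1972623, at chr16:20598471-20598530, starts 6901 bases before it. The exon or UTR that each probe falls in is not given in the sources used here. All 3 carry the gene name Vwa5b2 on the array. The gene reference used here matched the transcripts of A_51_P247030 and A_55_P1972623 to Vwa5b2. It held no gene for the transcript of A_66_P133425. The first 30 bases of each are shown because the sign of the difference depends on which is read.
A_51_P247030: tctgagctctctataggataatggaagagg
A_66_P133425: atttctaggtcatttaacatagaacctggg
A_55_P1972623: ctcccagagacggttgtcctgtaaagtgtt
The brightest probe read 11.29, 11.29 and 11.24 in EN and 10.97, 10.87 and 10.7 in AN at P0. At 1 W it read 12.44, 12.37 and 11.87 in EN and 10.17, 10.19 and 10 in AN. All EN arrays exceeded all AN arrays at both ages.

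At 3 W this probe read 12.52, 13.04 and 12.63 in EN and 9.25, 9.72 and 10.22 in AN. At 5 W it read 11.45, 11.53 and 11.61 in EN and 8.81, 8.6 and 8.35 in AN. EN exceeded AN by 0.43, 2.1, 3 and 2.94 at the 4 ages in turn (SE 0.20 each), and by 3.25 at 3 W without the AN array that stood apart. Since P0 the EN level differed by 0.95, 1.46 and 0.25 and the AN level by -0.73, -1.12 and -2.26 at 1 W, 3 W and 5 W, with no overlap of arrays in any of these 6 comparisons. In the order of the 8 groups, from 3 W EN (12.73) to 5 W AN (8.58), the only neighbours that overlapped were AN at 1 W and 3 W.

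In the mean of both roots these opposite movements left differences of 0.11 at 1 W and 0.17 at 3 W (adjusted p = 0.561 and 0.307). At 5 W the mean was lower than at P0 by a log2 difference of -1 (SE 0.14, adjusted p = 5.94e-06, and 0.000373 with the arrays paired). That value sits on the 2-fold threshold, and it fell just inside it (-0.94 to -1) on leaving out the EN or AN array of replicate 1 or 2 at P0, the AN array of replicate 3 or the EN array of replicate 1 at 5 W, or all arrays of replicate 2, while the adjusted p stayed under 0.05 in each. It also fell inside the threshold with slide (-0.99) or scan batch as a block, array weights (-0.95), scaling to the 75th percentile (-0.91) and normexp (-0.85). Within the slide that held both ages the difference was -0.97.

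A_66_P133425 ran the other way. It read 8.61, 8.46 and 8.53 in EN and 9.2, 9.15 and 8.53 in AN at P0, and 3.97, 3.45 and 3.43 in EN and 6.29, 7.68 and 4.84 in AN at 5 W. None of the EN arrays was well above background at 3 W or 5 W, and AN exceeded EN at least 2.02-fold and 2.35-fold at those ages. In the mean of both roots this probe fell by 2.23, 4.00 and 3.80 at 1 W, 3 W and 5 W (SE 0.49, adjusted p = 0.0013, 8.86e-07 and 1.5e-06), and each call held with the arrays paired. The third probe, A_55_P1972623, was well above background on no EN array and on 3 AN arrays in all, too few to give a difference. Of the other members of the VWA5 family, Vwa5a was called at no age between the roots and rose by 1.40 at 3 W and 1.14 at 5 W (adjusted p = 1.19e-06 and 1.22e-05), and Vwa5b1 never cleared the background mark.

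**Figure D2:**
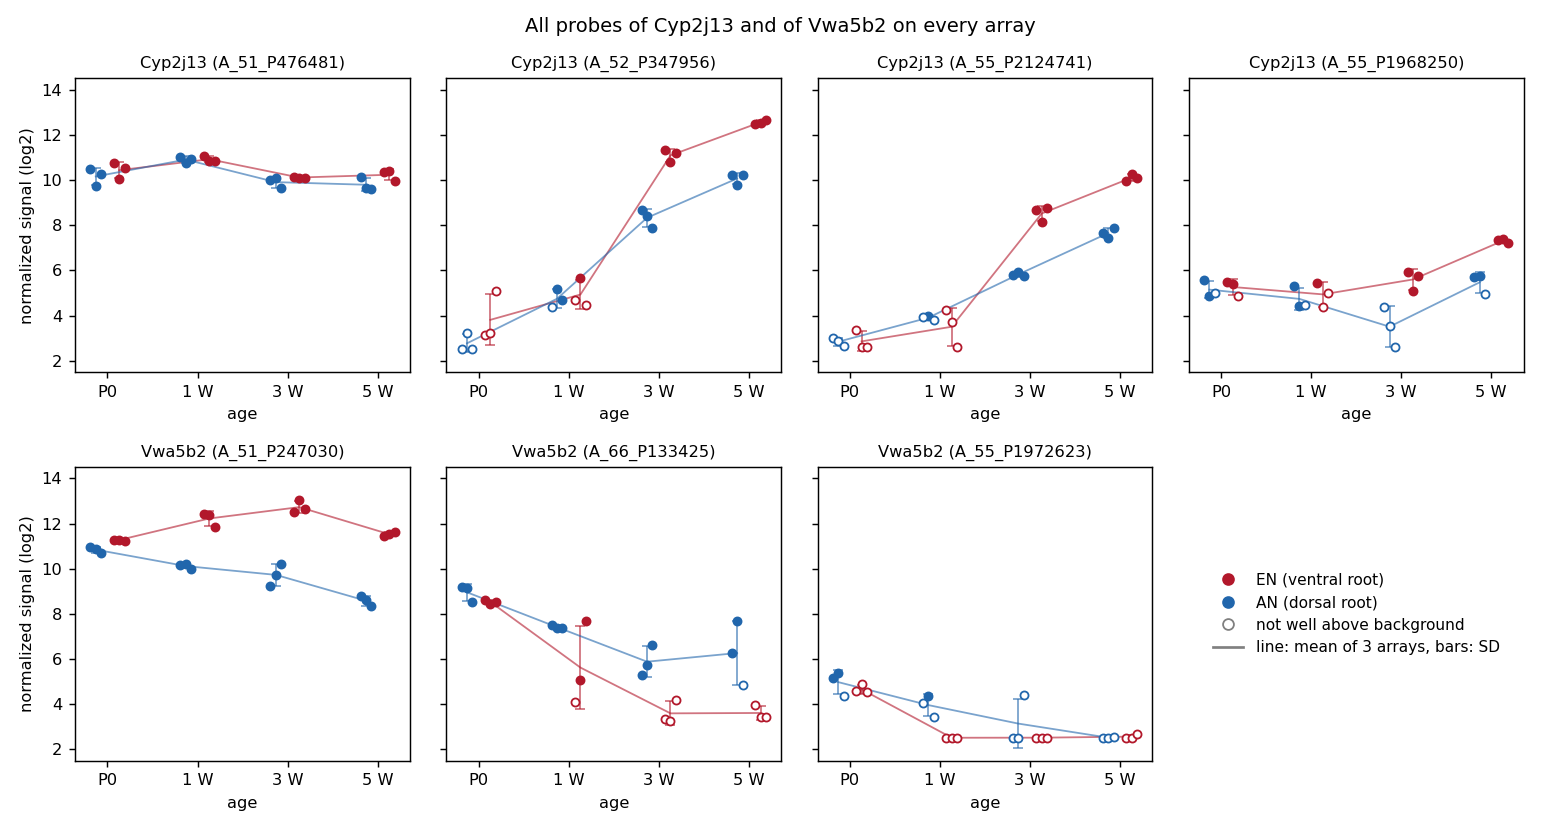
Normalized signal (log2, y axis) of all 4 probes of Cyp2j13 (upper row) and all 3 probes of Vwa5b2 (lower row) on every array at each age (x axis), EN in red and AN in blue, lines through the means of 3 arrays, bars of 1 SD, open points not well above background. The Cyp2j13 probes A_52_P347956 and A_55_P2124741 climbed from background to 12.5 to 12.67 and 9.94 to 10.28 in EN at 5 W while A_51_P476481 did not, and the Vwa5b2 probes lay in opposite order between the roots.

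Cyp2j13 depended most on the probe. It has 4 probes on the minus strand of chromosome 4 (mm9), and their first 30 bases are shown because they divide into one that stayed level and others that climbed.
A_55_P2124741, chr4:95723493-95723552: aaattctgagaatgggcaatagtgtccctc
A_51_P476481, chr4:95712305-95723288: atgggcagtttaagaagagagaatcttttc
A_52_P347956, chr4:95711984-95712043: aagttggaaggaattagactaaggtcagtg
A_55_P1968250, chr4:95709356-95709415: cctcctctcagatgattttggcttgtgtca
They are listed in the direction of transcription. A_51_P476481, the brightest, is placed over a span of 10984 bases, so its 60 bases fall in separate pieces of the gene, and the array annotation gives it accessions of both Cyp2j13 and Cyp2j12. The other 3 probes carry an accession of Cyp2j13 alone. No other Cyp2j probe on the array shares more than 13 consecutive bases with any of these 4. That compares probes only with probes, which can lie at different places of related transcripts. Whether any of the 4 matches the transcript of another Cyp2j gene was not tested.

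A_51_P476481 read 10.74, 10.05 and 10.52 in EN and 10.49, 9.74 and 10.25 in AN at P0, and 10.35, 10.4 and 9.96 in EN and 10.13, 9.63 and 9.62 in AN at 5 W. The roots overlapped at all 4 ages and differed by 0.01 to 0.45. Averaged over both roots this probe differed from P0 by 0.62 at 1 W (adjusted p = 0.00236, under 2-fold), -0.29 at 3 W and -0.28 at 5 W (adjusted p = 0.09 and 0.0956), and it was called at no age.

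A_52_P347956 was not well above background on any P0 array, reading 3.12, 3.21 and 5.11 in EN and 2.54, 3.24 and 2.54 in AN. At 3 W it read 11.32, 10.78 and 11.18 in EN and 8.68, 8.42 and 7.9 in AN, and at 5 W 12.5, 12.52 and 12.67 in EN and 10.21, 9.77 and 10.23 in AN. Both roots climbed, and every EN array lay above every AN array at both ages, by 2.76 and 2.49 in the mean. The mean of both roots rose by 6.42 and 8.03 at 3 W and 5 W (SE 0.29, adjusted p = 2.42e-12 and 6.85e-14), and both calls held with the arrays paired. At 1 W the mean of both roots was already called higher, by 1.55 (adjusted p = 0.000399 by limma, and 0.0136 with the arrays paired). At that age 3 of 6 arrays were well above background, and no bound on the change of this mean could be given. Because P0 was at background, the later changes are given as at least 28.4-fold higher at 3 W and at least 86.2-fold higher at 5 W, the mean later signal set against the dimmest probe well above background on each P0 array.

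A_55_P2124741, listed first above in the direction of transcription, had the same course as A_52_P347956. It read 8.67, 8.13 and 8.76 in EN and 5.79, 5.94 and 5.74 in AN at 3 W, and 9.94, 10.28 and 10.11 in EN and 7.64, 7.44 and 7.89 in AN at 5 W, with no P0 array well above background. Its mean of both roots rose by 4.32 and 6.03 at 3 W and 5 W (SE 0.21, adjusted p = 5.02e-12 and 3.76e-14), at least 4.88-fold and 15.9-fold. Over the 24 arrays it correlated with A_52_P347956 at r = 0.976, where A_51_P476481 correlated with A_52_P347956 at r = -0.462. The last probe along the gene, A_55_P1968250, was dim, and its mean of both roots rose by 1.19 at 5 W (adjusted p = 0.00101) after -0.66 at 3 W (adjusted p = 0.0442, under 2-fold). Its EN arrays read 7.33, 7.4 and 7.22 at 5 W, above AN at 5.72, 5.75 and 4.95. Within the slide that held P0 and 5 W, A_52_P347956 differed by 7.62 and A_55_P2124741 by 6.17, against 8.03 and 6.03 over all slides.

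Of the 5 other tested genes of the CYP2J and epoxide hydrolase list, none was called between the roots at any age. Nothing is read from this, since 0.255% to 0.882% of all tested probes were called higher in EN and 0.0714% to 2.49% lower. Cyp2j6, Cyp2j8 and Cyp2j9 were called at no age in the mean of both roots either, and Cyp2j5 never cleared the background mark. Ephx1, the microsomal epoxide hydrolase, rose by 1.40 at 3 W and 1.72 at 5 W (adjusted p = 6.99e-10 and 2.9e-11). Ephx2, the soluble epoxide hydrolase, rose by 1.02 at 3 W (adjusted p = 6.43e-08), and its 0.91 at 5 W was under 2-fold.

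Mcf2 was near background in both roots at P0 and 1 W, and only its EN level stood out later. Its single probe, A_55_P2030319, lies at chrX:57309286-57309345 (mm9, minus strand). At P0 it read 5.88, 5.73 and 5.41 in EN and 5.69, 6.76 and 5.22 in AN, and at 1 W 5.33, 5.37 and 5.74 in EN and 5.15, 5.27 and 4.99 in AN. At 3 W it read 7.75, 7.43 and 7.59 in EN and 4.61, 4.99 and 6.59 in AN, and at 5 W 7.65, 7.82 and 8.46 in EN and 4.92, 6.11 and 4.81 in AN. Its 3 W AN value of 6.59 belongs to the array that stood apart, and without it the difference between the roots at 3 W was 2.79 in place of 2.19 and the change of the mean of both roots since P0 was 0.41 in place of 0.71.

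EN exceeded AN by -0.22, 0.34, 2.19 and 2.7 at the 4 ages (SE 0.44 each). Since P0 EN differed by 1.91 at 3 W and 2.31 at 5 W and AN by -0.5 and -0.61. In the mean of both roots Mcf2 differed from P0 by -0.47, 0.71 and 0.85 (adjusted p = 0.240, 0.0517 and 0.0230), each under 2-fold and none called. Without the AN array of replicate 2 at P0 the 5 W difference was 1.06 (adjusted p = 0.00508), and without all arrays of replicate 2 the 3 W difference was 1.08 (adjusted p = 0.0298).

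Sds climbed in both roots, earlier in EN. Its brightest probe, A_51_P249335, lies at chr5:120933105-120933164 (mm9, plus strand). None of the 6 P0 arrays was well above background, at 3.04, 3.8 and 2.8 in EN and 2.94, 3.01 and 2.97 in AN. At 1 W it read 6.81, 7.28 and 6.06 in EN and 4.19, 4.67 and 2.64 in AN, where 1 of 3 AN arrays was well above background. At 3 W it read 9.1, 9.75 and 9.32 in EN and 6.92, 7.59 and 6.77 in AN. Arrays of the roots did not overlap at 1 W or 3 W, and they did at 5 W, with 9.7, 8.14 and 9.23 in EN and 8.55, 6.85 and 8.65 in AN.

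EN exceeded AN by 0.23, 2.88, 2.3 and 1 at the 4 ages (SE 0.53 each). The mean of both roots rose by 2.18 at 1 W, 5.15 at 3 W and 5.43 at 5 W (SE 0.37, adjusted p = 0.000145, 9.66e-10 and 3.23e-10), and each call held with the arrays paired. Against the background bound of the P0 arrays these are at least 1.31-fold, 10.2-fold and 12.4-fold. With normexp the mean of both roots rose by 0.68, 2.33 and 2.52, and the 1 W rise, under 2-fold, was no longer called. Within a slide, Sds differed from P0 by 2.51 and 1.21 at 1 W and by 4.36 at 5 W. The second Sds probe cleared the background mark on 0 of 24 arrays.

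The other 11 genes of serine and glycine metabolism were called between the roots at no age. Over all tested probes the shares were 0.255% to 0.882% higher in EN and 0.0714% to 2.49% lower, so nothing is read from this count. Phgdh, the first enzyme of serine synthesis, was under 2-fold at every age in the mean of both roots. Srr, the serine racemase, rose by 1.47 at 3 W and 1.64 at 5 W (adjusted p = 1.67e-11 and 2.19e-12). Gcat, an enzyme of glycine and threonine breakdown, rose by 1.05, 1.45 and 1.35 at the 3 later ages (adjusted p = 1.31e-05, 5.63e-08 and 1.19e-07). Cth, which makes cysteine, fell by 1.38 at 1 W and rose by 1.03 at 3 W and 1.04 at 5 W (adjusted p = 1.05e-06, 8.29e-06 and 6.95e-06). In all, 1, 3 and 3 of the 11 rose at 1 W, 3 W and 5 W (5.74%, 16.1% and 15.5% of all probes did) and 2, 1 and 1 fell (5.11%, 14.4% and 14.6%). Gldc, of the glycine cleavage system, fell by 1.70, 2.67 and 3.04 (adjusted p = 7.85e-09, 2.79e-12 and 2.51e-13).

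Pgc stayed close to background throughout. Its probe, A_51_P427624, lies at chr17:47871203-47871263 (mm9, plus strand). At P0 it read 5.6, 5.67 and 5.43 in EN and 4.33, 4.37 and 5.09 in AN, and at 1 W 5.09, 5.74 and 5.45 in EN and 2.54, 3.29 and 3.68 in AN. At 3 W it read 5.42, 5.96 and 6.13 in EN and 3.8, 4.59 and 3.35 in AN, and at 5 W 4.27, 5.04 and 5.15 in EN and 4.01, 3.41 and 3.63 in AN. Every EN array exceeded every AN array at each age. Only 3 of the 12 AN arrays and 9 of the 12 EN arrays were well above background, and at 1 W, where no AN array was, the difference of 2.26 corresponds to at least 1.93-fold.

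The mean of both roots of Pgc differed from P0 by -0.78, -0.21 and -0.83 (adjusted p = 0.0133, 0.453 and 0.00498), each under 2-fold and none called, and with the arrays paired no adjusted p was under 0.05. With slide as a block the 5 W difference passed (-1.06, adjusted p = 0.0054). Among 6 other pepsin-like aspartic proteases, Bace2, a membrane protease, was called higher in EN at P0, at 12.83 ± 0.17 against 11.8 ± 0.25 (adjusted p = 0.0029, SD, n = 3). Bace2 also rose with age, by 1.69, 2.47 and 2.55 (adjusted p = 1.24e-09, 1.1e-12 and 3.4e-13). Ctse, cathepsin E, rose by 2.29, 3.05 and 1.89 (adjusted p = 0.00219, 6.2e-05 and 0.0045), and Napsa, an aspartic protease of lung and kidney, by 1.20 at 3 W (adjusted p = 0.00984). Ctsd, a lysosomal protease, was under 2-fold at every age. None of 9 tested stomach and liver genes was called between the roots at any age. Nothing is read from this count, as only 0.255% to 0.882% of all tested probes were called higher in EN and 0.0714% to 2.49% lower.

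Abca12 was well above background mainly at P0 and 1 W and not at 5 W. Its brightest probe, A_52_P27956, lies at chr1:71289712-71289771 (mm9, minus strand). At P0 it read 7.25, 6.82 and 7.11 in EN and 5.52, 4.41 and 4.88 in AN. At 1 W it read 7.79, 7.8 and 7.81 in EN and 7.42, 7.58 and 7.97 in AN. Means of the roots were thus 2.13 apart at P0 and overlapped at 1 W, when AN stood 2.72 above its own P0 level and EN 0.74.

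At 3 W Abca12 read 4.37, 3.89 and 5.74 in EN, of which 1 array was well above background, and 3.15, 3.85 and 3.13 in AN. At 5 W it read 3.4, 2.87 and 2.67 in EN and 2.63, 2.63 and 3.26 in AN, with no array well above background. The mean of both roots rose by 1.73 at 1 W, then lay below P0 by -1.98 at 3 W and -3.09 at 5 W (SE 0.26, adjusted p = 4.21e-05, 2.51e-06 and 6.11e-09). All 3 calls held with the arrays paired (SE 0.42, adjusted p = 0.00517, 0.000648 and 5.74e-06), and the 5 W level was at least 2.35-fold lower. With normexp the differences were 0.94, -0.62 and -0.93, each under 2-fold, so none of the 3 was called, though each adjusted p stayed under 0.05. The other 3 Abca12 probes were tested at no age because no group had all 3 arrays well above background.

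Among 12 other ABCA transporters, Abca8a and Abca8b were called lower in EN at 3 W (-1.08 and -1.74, adjusted p = 8.2e-05 and 2.01e-06) and at 5 W (-1.20 and -1.69, adjusted p = 2.41e-05 and 1.62e-06). Abca17 was called higher in EN at 3 W (1.38, adjusted p = 0.0242). Abca2, a transporter of myelin-forming cells, rose by 1.44, 2.23 and 2.38 (adjusted p = 4e-08, 1.75e-11 and 4.17e-12), and Abca6 fell by 1.78 at 3 W and 1.62 at 5 W (adjusted p = 1.7e-06 and 4.93e-06). In all, 1, 1 and 2 of the 12 rose at 1 W, 3 W and 5 W and 0, 2 and 1 fell, near the shares over all probes (5.74%, 16.1% and 15.5% rose, 5.11%, 14.4% and 14.6% fell). None of 9 tested epithelial and keratinocyte genes, markers of the cells in which Abca12 is best known, was called between the roots at any age. Of all tested probes 0.255% to 0.882% were called higher in EN and 0.0714% to 2.49% lower, so nothing is read from this count.

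**Figure D3:**
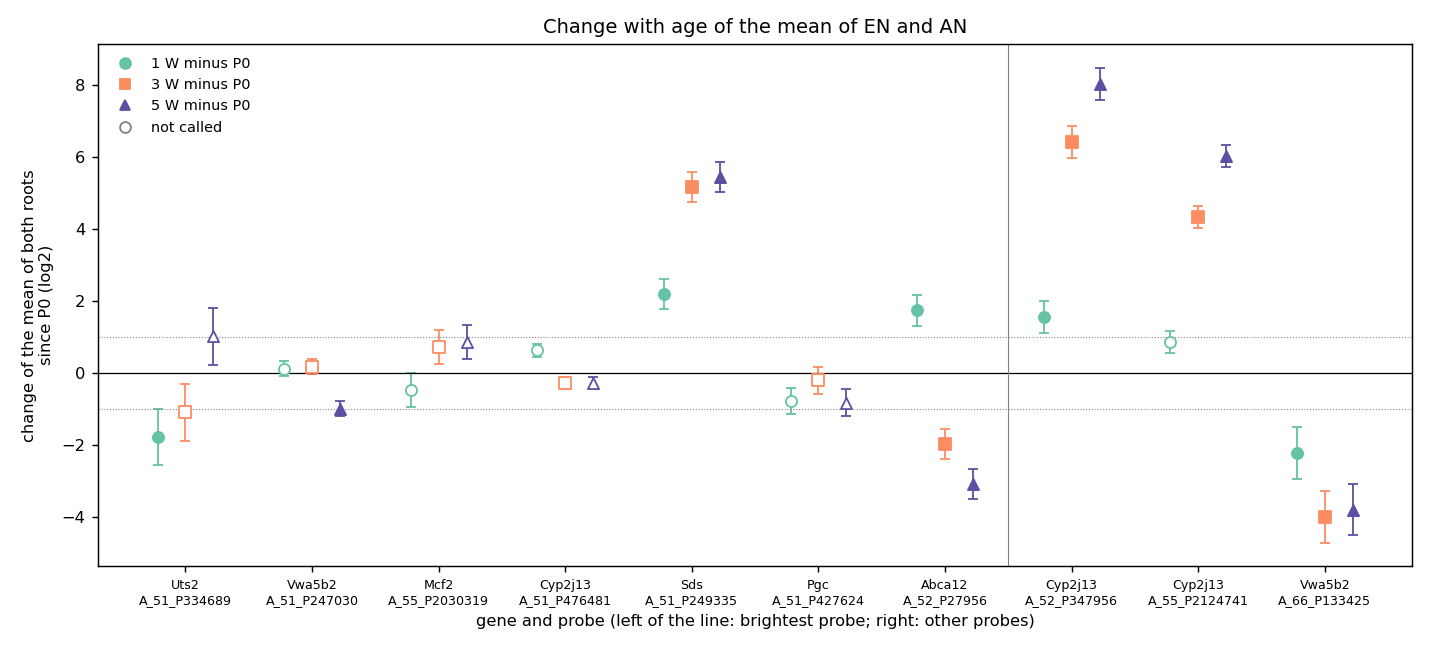
Change of the mean of EN and AN since P0 (log2, y axis) at 1 W, 3 W and 5 W for the brightest probe of each gene (left of the line) and for 3 further probes (right); bars are 1 SE with the arrays paired, filled points are called by limma without the pairing and dotted lines mark a 2-fold difference. Sds rose to 5.43 and Abca12 lay at -3.09 at 5 W, while the further Cyp2j13 probes reached 8.03 and 6.03.

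In the mean of both roots, 2 of the 7 brightest probes (Sds and Abca12) were called higher at 1 W than at P0, where 5.74% of all tested probes were, and 1 (Uts2) lower, where 5.11% were. With the arrays paired the 2 higher calls remained, against 5.24% of all probes, and the count of lower calls was 0, against 3.7% (limma). At 3 W, 1 (Sds) was called higher and 1 (Abca12) lower, against 16.1% and 14.4% of all tested probes. At 5 W, 1 (Sds) was called higher and 2 (Vwa5b2 and Abca12) lower, against 15.5% and 14.6%. The calls at 3 W and 5 W were the same with the arrays paired, where 15.6% and 13.4% of all probes were called higher and lower at 3 W and 15% and 13.6% at 5 W. With slide as a block, which ties 3 W to P0 through the 5 W arrays, Sds differed by 3.95 at 3 W (adjusted p = 6.08e-06), Abca12 by -2.06 (adjusted p = 0.00509) and the Cyp2j13 probe A_52_P347956 by 5.84 (adjusted p = 4.74e-07). The median change over the 7 probes was 0.11, -0.21 and -0.28 at 1 W, 3 W and 5 W, against 0.04, 0.02 and 0.03 over all tested probes. The 7 genes thus had no common course with age.

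Between the roots, every EN array exceeded every AN array for 3, 5, 6 and 4 of the 7 probes in order of age, where 6.48%, 12.7%, 19.9% and 10.7% of all tested probes did so, and nothing is read from these counts because the genes were chosen for this difference. Uts2, Vwa5b2 and Mcf2 had larger differences at 5 W than at P0, and Abca12 had its largest at P0. Those of Sds and Pgc were largest at 1 W by the deposited values, but with normexp Sds was at 1.05 at 1 W and 1.8 at 3 W and Pgc at 0.53 and 0.56. Without the AN array that stood apart, the 3 W differences of Sds, Pgc, Abca12 and the brightest Cyp2j13 probe were 2.14, 1.64, 1.17 and 0.07. Among probes well above background on all EN arrays, Uts2 ranked first by this difference at 5 W in the deposited values. The next genes outside the set, leaving out accession and clone names that held some of the places between, were Myh1 (2.64) and Ttn (2.38), both of muscle, at P0, Fndc3a (3.52) and Map3k10 (3.2) at 1 W, Lcn6 (3.15) and Fgl2 (2.61) at 3 W, and Copg2os2 (2.69) and Rph3a (2.68) at 5 W. Several of these exceeded members of the set.

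**Figure D4:**
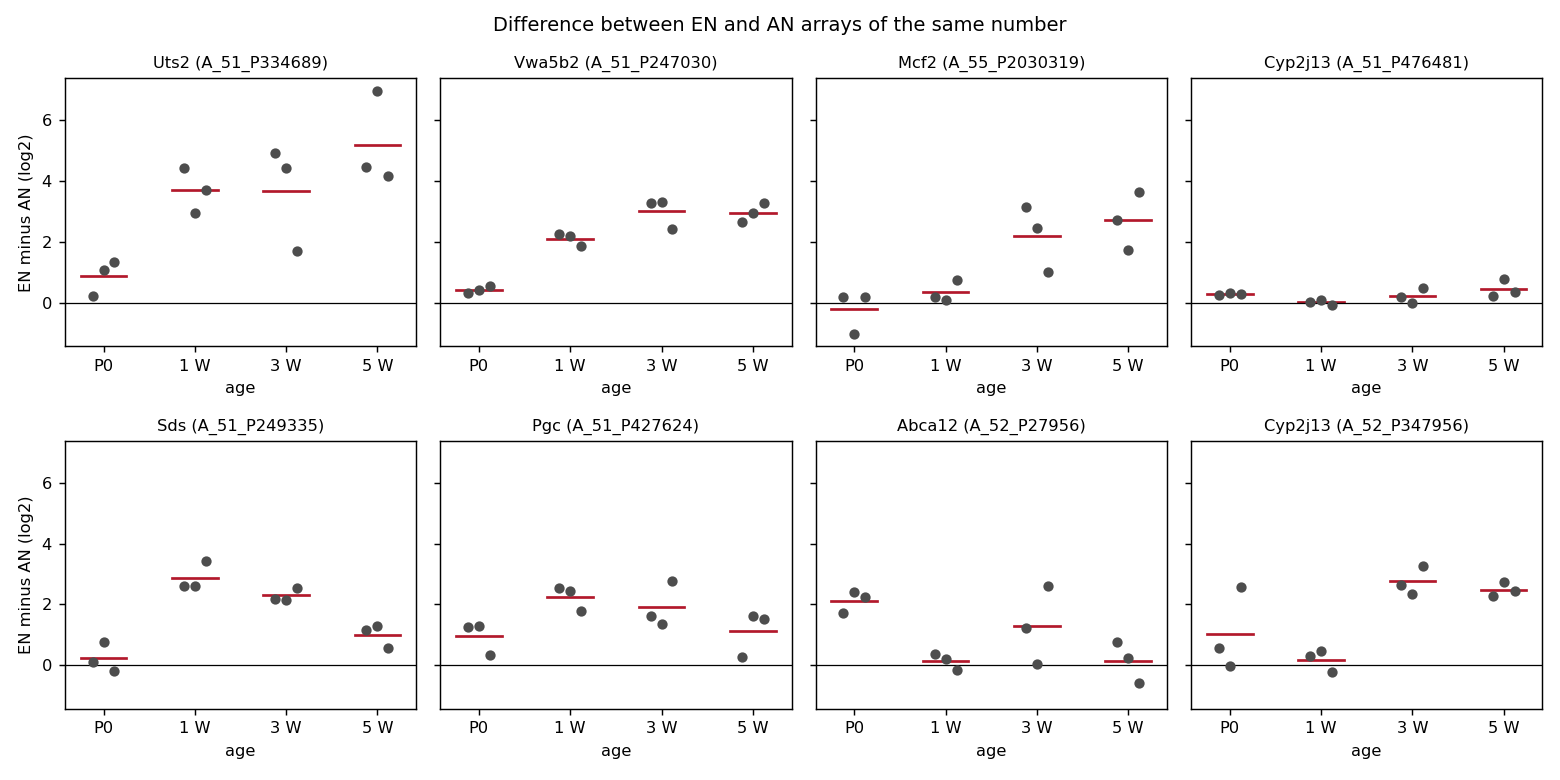
Difference in log2 signal between the EN and AN arrays of the same number (y axis) at each age (x axis) for the brightest probe of each gene and for the Cyp2j13 probe A_52_P347956; points are the 3 pairs and red lines their means. The means for Uts2 went from 0.87 at P0 to 5.2 at 5 W, those for Abca12 from 2.13 to 0.14, and the brightest Cyp2j13 probe stayed between 0.01 and 0.45.

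Across the 24 arrays the members varied in different ways among themselves. Vwa5b2 and Pgc correlated at r = 0.782, Uts2 and Mcf2 at 0.733, Sds and the Cyp2j13 probe A_52_P347956 at 0.905, and Sds and Abca12 at -0.58. These are descriptions over 24 arrays that share ages, roots and slides, and the first 2 pairs share the difference for which the genes were chosen. Among 15567 other named genes with a tested probe, the courses most like that of Uts2 were those of Greb1 (r = 0.917), Rhod (0.87) and Fkbp7 (0.825). Those most like Vwa5b2 were Tenm2 (0.881), Kif5c (0.861) and Pdgfra (0.849), and those most like Mcf2 were Copg2os2 (0.895), Gng13 (0.855) and Agpat4 (0.842). For Sds they were Vit (0.971), Ehd4 (0.968) and Atp6v0a2 (0.968), for Pgc Bicc1 (0.854), Tenm2 (0.851) and Plag1 (0.845), and for Abca12 Phldb2 (0.938), Atp10b (0.936) and Mcts2 (0.932). The 2 Cyp2j13 probes that climbed shared Cldn14 (0.982 and 0.983) and Me1 (0.98 and 0.974) among their 3 nearest genes, while the brightest probe was nearest to Dlx6os2 (0.93), Nipsnap3b (0.927) and S100a2 (0.91).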

How the data were processed

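Efferent and afferent nerve fibres of 4 ages were profiled on 24 one-colour Agilent arrays, 3 for each of 8 groups. Per the file headers, the scanner software (Agilent Feature Extraction 10.7.1.1, as the submitters' processing notes name it too) gave background-subtracted intensity per spot and a mark for spots well above local background. The authors then made the deposited log2 values by quantile normalization in GeneSpring, and these were used as they stand. Quantile normalization gives all arrays one distribution, so a change shared by most probes cannot be seen. Probe positions are on mm9.

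The 8 group means were fitted with limma 3.58.1 (R 4.3.3) over 36409 of 56605 gene probes, those marked as above background by the software throughout at least 1 group (3 of 3 arrays), with Benjamini-Hochberg adjustment over all of them. The function was checked on simulated data of independent arrays with changes at a single age. Those data held no correlation between EN and AN arrays, so the check gives no error rate for arrays that vary together. Other steps used Python 3.11.15 and pandas 2.3.3. A group with no array well above background has only a bound, and "at least" folds set the brighter mean against the higher of the dim probe's own value and the dimmest well-measured signal on each dim array. The number of arrays limits the precision.

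EN and AN arrays of one age and number deviated together: over 12 pairs r was between 0.107 and 0.646. The labels do not say what the number marks. Those arrays shared slides, so the pairing was taken as a random block (correlation 0.564), and its value is given where it changes a call. Age tests printed without mention of the pairing treat these arrays as independent. For the members their SEs are smaller than the paired ones. All 3 W arrays lay on a slide without P0 arrays but with 5 W arrays, so 3 W could be set against P0 only across slides or with slide as a block.

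The 7 genes and all gene lists were chosen with earlier results of these data known. Named genes were the 7 members, genes of the lists fixed for each member's family or for cell types (the list for Mcf2 is not reported here), the 3 genes with the highest correlation to each member, and the next 2 genes by EN minus AN at each age. Alternatives were another background correction (normexp with an offset of 50), scaling, filters, blocks, array weights, other probes and leaving out arrays. Probe sequences are the first 30 of 60 bases in the deposited array files.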

Additional observations from a re-analysis of the deposited data

Results flagged for a closer look

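Vwa5b2, by its brightest probe, moved in opposite directions in the 2 roots after P0: at each later age every EN array lay above all P0 EN arrays and every AN array below all P0 AN arrays. The change since P0 in EN exceeded that in AN by 1.68 on the log2 scale at 1 W, 2.57 at 3 W and 2.52 at 5 W. The difference was not tested, because the gene was chosen for its signal in EN over AN.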

How the results depend on the processing

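Reading another probe reversed the direction of several values. For Vwa5b2, A_66_P133425 gave -2.23 at 1 W and -4 at 3 W for the mean of both roots, and -1.8, -2.29 and -2.66 for EN minus AN at 1 W, 3 W and 5 W. For Cyp2j13, the change of the mean of both roots was 6.42 and 8.03 by A_52_P347956 and 4.32 and 6.03 by A_55_P2124741 at 3 W and 5 W, and 1.19 by A_55_P1968250 at 5 W. The cause was not tested.

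Over the age tests of the 7 brightest probes, 199 values under other settings kept their direction and side of the threshold, 6 newly passed and 11 no longer passed; on leaving out arrays the counts were 551, 6 and 10. With normexp background correction 0 of the 7 were called at 1 W (limma) and 1 at 3 W, against 3 and 2; Abca12 was called at no age (0.94, -0.62 and -0.93). EN minus AN was then 1.12 for Mcf2 at 3 W, 1.05 for Sds at 1 W and 0.95 for Abca12 at P0, and the cause was not tested. Leaving out arrays gave 2 to 3 members called at 1 W, 2 to 3 at 3 W and 2 to 4 at 5 W.

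Over all probes, 3951, 11099 and 10973 were called with age at 1 W, 3 W and 5 W. With only probes well above background on all 24 arrays, fewer probes being tested, the counts were 1947, 6305 and 6392, with normexp 1797, 6181 and 6625, and on leaving out arrays 3346 to 4398, 10467 to 11547 and 10096 to 11461.

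Between the roots, 119, 1014, 1134 and 1205 probes were called in order of age. With the EN and AN arrays paired (replicate block) the counts were 292, 1721, 2092 and 2068. In the separate age tests the pairing ended 1 member's call, that of Uts2 for the mean of both roots, 1 W minus P0 (-1.78). At an unadjusted p the counts between the roots were 407, 1816, 2054 and 2046. On the probes above background on all arrays they were 485, 549 and 578 from 1 W on. With only the groups compared they were 0 at P0 (limma), 673 at 3 W and 35 at 5 W, and with normexp 73, 591 and 587. Slide or scan batch as a block gave 190 at P0, and array weights gave 1790 at 1 W. Leaving out arrays gave 0 to 185, 5 to 1424, 222 to 1317 and 246 to 1777, and 688 at 3 W without the AN array of replicate 3. Pgc and the early values of Sds and Mcf2 and the late ones of Abca12 lie near background, which limits their folds.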
